A study of Mus musculus with 6 samples.

Results

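The genes described here encode the part of the mitochondrial respiratory chain that runs from succinate dehydrogenase to ATP synthase. They were chosen by symbol: every row of the gene table that starts with Uqcr, Atp5, Sdh, Cox5, Cox6c, Cox7b, Cox7c or Cox1, together with Cyc1, Cycs and Atpif1. The rule gave 48 members of the 23367 genes in the table. Of these, 34 are subunits: 4 of complex II, 9 of complex III with Cyc1 among them, 6 of complex IV and 15 of complex V. Cycs encodes cytochrome c itself. A further 10 are assembly factors, of which 2 act on complex II and 8 on complex IV. The last 3, Atpif1, Atp5s and Atp5sl, were grouped as regulators of complex V or genes named after it. Complex IV is held only in part, because the rule leaves out its Cox4, Cox6a, Cox6b, Cox7a and Cox8 subunits. Subunits encoded by mitochondrial DNA do not meet the rule either.

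Polyadenylated RNA from the gastrocnemius, a mostly fast calf muscle, was sequenced from wild-type FVB mice. The 6 libraries covered 5 stages. E18.5 was 1 library of pooled male and female mice at embryonic day 18.5, and PN2 was 1 library of pooled males at postnatal day 2. PN14 was 2 libraries, each from 1 male at postnatal day 14. PN28 was 1 male at postnatal day 28, and the adult was 1 male at 22 weeks. Each library was named for a different sequencing lane, so that lane and stage cannot be told apart.

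Complexes II, III and IV pass electrons from succinate and ubiquinol, by way of the small soluble carrier cytochrome c, to oxygen. Complexes III and IV pump protons across the inner membrane as they do so, and complex V, the ATP synthase, lets the protons back through a turning ring of c subunits to make ATP. Subunits are structural parts of the finished complexes. Assembly factors help to build them and do not stay, and some fit cofactors such as heme, copper, flavin and iron-sulfur clusters. Muscle fibres gain oxidative capacity after birth as mitochondria enlarge and multiply.

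Between 125402932 and 157868359 counts per library were assigned to genes. Levels are given in FPKM (a read count scaled to transcript length and library size), which allows genes of different length to be compared. Changes are log2 fold changes of counts with their standard error (SE), later stage against earlier, from edgeR's quasi-likelihood test after TMM normalisation. A gene was called when its Benjamini-Hochberg adjusted p over all 16882 genes tested was under 0.05 and its log2 fold change was at least 1 in size. The test had 1 residual degree of freedom, because only PN14 had more than 1 library, and the spread between the PN14 mice stands in for every stage. The fit also shared this spread between genes, with 4.86 prior degrees of freedom, so an SE is not the gene's own PN14 spread alone. TMM factors ran from 1.4517 and 1.4524 at PN2 and E18.5 down to 0.7136 in the adult. Scaling by library size alone shifted the median of all genes to -0.66 from PN2 to PN14, -0.92 from PN2 to PN28 and -1.08 from E18.5 to adult, against -0.01, -0.04 and -0.05 under TMM. Changes below are therefore relative to the middle of all genes unless library size is named. The muscle markers Acta1, Ckm, Des and Ttn were present in every library, with a summed level of 17514 to 59435 FPKM. In whole muscle, fewer cells of a type and less RNA per cell cannot be told apart.

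From PN2 to PN14, 37 of the 47 members tested were called higher and 0 lower. Over all genes tested, 11.8% were called higher and 11.2% lower. The median change of the members was 1.58, and 46 of 47 were above 0. Under library size alone, 19 members were called higher and 1 lower, against 5.06% and 29.4% of all genes, and the members' median was 0.93 against -0.66 for all genes. The largest change was that of Sdhb and the lowest that of Atpif1. By PN28, 38 members were called higher than at PN2 and 1, Atpif1, lower, against 14.3% and 12.7% of all genes. Of the members called higher by PN14, 36 were also called higher by PN28, in comparisons that share the PN2 library. From E18.5 to adult, 39 members were called higher and 1, again Atpif1, lower, against 21.4% and 23.6% of all genes. These late comparisons leaned on the scaling: with library size alone, 5 members were called higher and 1 lower from PN2 to PN28, against 5.05% and 37.3% of all genes. From E18.5 to adult, 1 was called higher and 1 lower on that scale, against 7.98% and 45.6% of all genes. The same shares of all genes stand beside the counts by role below.

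**Figure D1:**
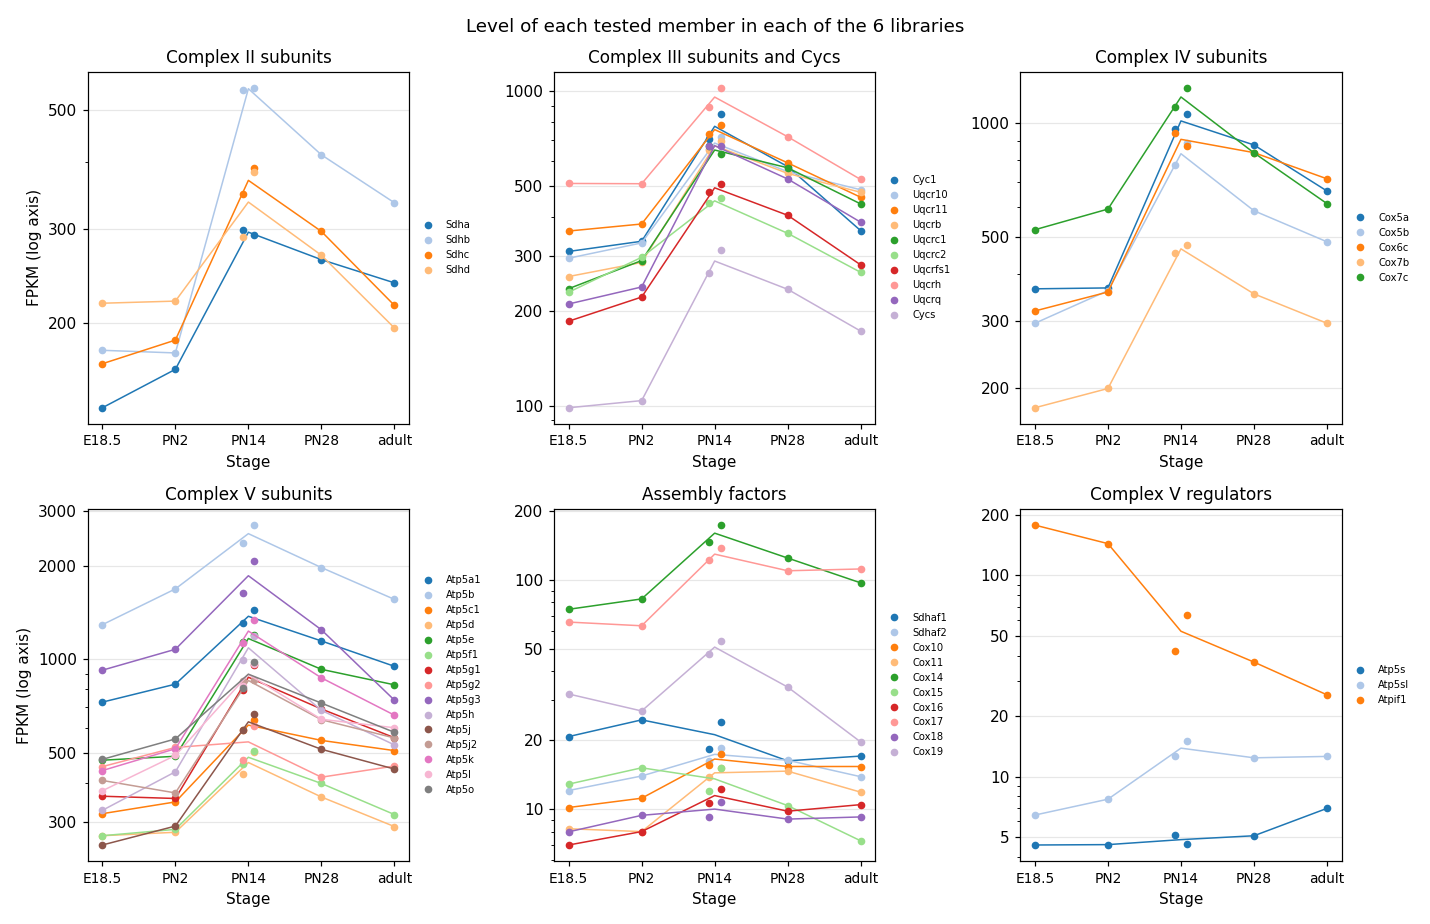
FPKM on a log axis for the 47 members with enough reads to test, by stage and role. Each point is 1 library, and each line runs through the single libraries and the PN14 mean. By that mean the subunits of complexes II to V peak at PN14, while Atpif1 runs from 178 FPKM at E18.5 to 25.5 in the adult.

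With PN14 taken as the mean of its 2 libraries, all 33 tested subunits were highest at PN14 in FPKM, and 26 were lowest at E18.5. Atp5g2 in PN14 replicate 1, at 473 FPKM, lay below its PN2 level of 520. In TMM-normalised CPM, read counts scaled to the adjusted library size, 27 of the 33 peaked at PN14, 4 at PN28 and 2 at 22 weeks. Of the 10 assembly factors, 7 peaked at PN14 in FPKM. On the TMM scale 3 of them peaked at PN14, 2 at PN28 and 5 at 22 weeks. Peak stages were not counted over all genes. The summed FPKM of the members made up 2.60% of all FPKM at E18.5 and 3.02% at PN2. It reached 4.57% and 5.20% in PN14 replicates 1 and 2, and was 3.80% at PN28 and 3.21% in the adult. Both PN14 libraries thus lay above the other 4. The PN14 replicates themselves differed: on the FPKM scale 42 of 47 members were higher in replicate 2, with a median log2 difference of 0.18, whereas on the TMM scale 10 of 47 were higher there, with a median of -0.08.

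The promoters of the members, whichever way they changed, were read from RefSeq for the mouse build GRCm38.p6. A promoter was found for 39 of the 48 members, and the 250 bases before the start were searched on both strands. The NRF-1 core, GCATGCGC or GCGCATGC, was in 5 of the 39 (12.8%) and in 2.32% of 27025 genes with a promoter. The ETS core, CCGGAAG or CTTCCGG, was in 9 (23.1%) against 7.05%. The ERR element, AAGGTCA or TGACCTT, was in 3 (7.69%) against 4.05%. The YY1 core, AAGATGG or CCATCTT, was in 0 against 4.53%. The CCAAT box, CCAAT or ATTGG, was in 19 (48.7%) against 34.5%, and the TATA box, TATAAA or TTTATA, in 3 (7.69%) against 13%. A match is a string of letters and not a shown site. The comparison with all genes was not matched for base composition, and a link between motifs and changes was not tested. The 120 bases just before the start are printed for the subunit gene with the largest rise from PN2 to PN14 and for cytochrome c. They are also printed for the 3 genes of subunit c, which encode 1 mature protein from 3 promoters. Each is written 5′ to 3′ on the strand of the gene, with matches to these motifs in capitals, and matches may overlap.
Sdhb: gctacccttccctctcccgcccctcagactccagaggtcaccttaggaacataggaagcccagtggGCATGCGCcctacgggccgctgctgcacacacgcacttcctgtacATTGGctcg
Cycs: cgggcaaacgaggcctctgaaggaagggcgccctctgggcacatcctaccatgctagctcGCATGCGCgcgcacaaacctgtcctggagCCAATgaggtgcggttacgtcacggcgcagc
Atp5g1: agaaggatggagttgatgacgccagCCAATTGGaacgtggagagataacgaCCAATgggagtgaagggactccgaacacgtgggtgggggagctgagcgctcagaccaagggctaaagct
Atp5g2: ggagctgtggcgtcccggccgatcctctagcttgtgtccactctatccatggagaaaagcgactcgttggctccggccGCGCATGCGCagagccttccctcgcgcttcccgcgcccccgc
Atp5g3: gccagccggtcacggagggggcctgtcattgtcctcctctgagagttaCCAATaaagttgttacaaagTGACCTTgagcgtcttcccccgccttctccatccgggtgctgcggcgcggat
In GRCm38.p6 these lie at chr4:140961151-140961270 on the plus strand (Sdhb), chr6:50566570-50566689 (Cycs), chr11:96075632-96075751 (Atp5g1), chr15:102671048-102671167 (Atp5g2) and chr2:73911327-73911446 (Atp5g3), the last 4 on the minus strand. Sdhb and Cycs each hold an NRF-1 core and a CCAAT box. Atp5g1 holds CCAAT boxes, Atp5g2 the NRF-1 core in an overlapping pair on both strands, and Atp5g3 a CCAAT box and an ERR element, so the 3 subunit c genes differ in the letters found. Cox5a, the subunit gene with the largest rise from PN2 to PN28, had no match to these motifs in the 250 bases searched.

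All 4 subunits of complex II were called higher from PN2 to PN14, with a median log2 fold change of 1.58. Sdhb, the iron-sulfur subunit (mm9 chr4:140517118-140535108, plus strand), was at 178 FPKM at E18.5 and 176 at PN2, reached 547 and 551 in PN14 replicates 1 and 2, and was at 413 at PN28 and 336 in the adult. Every library from PN14 onward lay above both early libraries. Its change from PN2 to PN14 was 2.30 (SE 0.348, edgeR adjusted p = 0.00906), or 4.94-fold, and 1.64 under library size alone. Sdha, the flavoprotein that oxidises succinate, was at 139, 164, 299, 293, 263 and 238 FPKM in the same order of libraries. It rose by 1.52 (SE 0.397, edgeR adjusted p = 0.0354) from PN2 to PN14. Sdhd, a membrane anchor, had the smallest change of the 4. Its level was 218 FPKM at E18.5, 220 at PN2, 290 and 384 at PN14, then 268 at PN28 and 196 in the adult, so that the adult library lay below both early ones. From PN2 to PN14 it rose by 1.26 (SE 0.298, edgeR adjusted p = 0.0273), and from E18.5 to adult the change was 0.87 (SE 0.327, edgeR adjusted p = 0.0662), which was not called. The other anchor, Sdhc, was at 168 and 186 FPKM before PN14 and at 216 to 391 from then on. In FPKM, Sdhb stood at 0.814 and 0.800 of the level of Sdhd in the early libraries and at 1.43 to 1.89 times that level in the later ones.

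Of the 9 complex III subunits, 8 were called higher from PN2 to PN14 and 9 from E18.5 to adult. The median change was 1.82 from PN2 to PN14 and the range 1.26 to 2.16. Uqcrq, a small ubiquinone-binding subunit, was at 211 and 239 FPKM at E18.5 and PN2, 673 and 672 at PN14, then 527 at PN28 and 384 in the adult. All 4 later libraries exceeded the early ones, and the PN14 pair differed by less than 1 FPKM (SD 0.453, n = 2). Its change from PN2 to PN14 was 2.16 (SE 0.289, edgeR adjusted p = 0.00706). At the other end, Uqcrc2, a core protein facing the matrix, was at 230, 297, 441, 457, 354 and 266 FPKM. The adult level lay between those of E18.5 and PN2. Its change of 1.26 from PN2 to PN14 (SE 0.375, edgeR adjusted p = 0.0505) just missed the threshold, and exons of Uqcrc2 overlap those of Pdzd9 on the other strand. Uqcrc1, the partner core protein, gave 1.84 (SE 0.431, edgeR adjusted p = 0.0264), with levels of 290 FPKM at PN2 and 669 and 634 at PN14. Cyc1, the cytochrome c1 that hands electrons on, was at 310 FPKM at E18.5, 334 at PN2, 704 and 846 at PN14, then 577 at PN28 and 361 in the adult. It was called higher at PN14 (log2 fold change 1.87, SE 0.375, edgeR adjusted p = 0.0176). The Rieske iron-sulfur protein Uqcrfs1, and Uqcrb, Uqcr10, Uqcr11 and Uqcrh, changed by 1.57 to 1.89 over the same interval and were all called. Uqcrh, the hinge protein, was the most abundant of the 9 at every stage, at 509 to 1027 FPKM.

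Cycs, cytochrome c, had a larger fold change from PN2 to PN14 than 8 of the 9 complex III subunits. Its level was 98.7 FPKM at E18.5, 104 at PN2, 265 and 313 at PN14, then 235 at PN28 and 173 in the adult. The early libraries did not overlap the later ones. The change from PN2 to PN14 was 2.13 (SE 0.384, edgeR adjusted p = 0.0135), that to PN28 was 2.06 (SE 0.414, edgeR adjusted p = 0.0174), and under library size alone they were 1.47 and 1.18. Relative to Cyc1, its electron donor, Cycs stood at 0.318 and 0.312 in the early libraries, at 0.376 and 0.370 at PN14, and at 0.407 and 0.479 at PN28 and in the adult. Mouse Cycs has processed copies in the genome (the gene lies at mm9 chr6:50512562-50516537), and how the counting divided reads among such copies was not tested here or for other members that have them.

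The 5 tested complex IV subunits were all called higher from PN2 to PN14, PN2 to PN28 and E18.5 to adult, with medians of 1.89, 1.72 and 1.77. Cox5a, a matrix-facing subunit, was at 365 and 367 FPKM at E18.5 and PN2, 968 and 1060 at PN14, then 876 at PN28 and 662 in the adult. All later libraries exceeded the early ones. The rise to PN14 was 2.13 (SE 0.357, edgeR adjusted p = 0.0114), with exons that overlap a long noncoding RNA, Gm17596, on the other strand. Cox5b, its neighbour in the complex that binds zinc, went from 361 FPKM at PN2 to 776 and 885 at PN14 and was at 587 and 486 afterwards. Its change was 1.86 (SE 0.298, edgeR adjusted p = 0.0102). Cox7c, a single-span membrane subunit, had the smallest change, 1.64 (SE 0.304, edgeR adjusted p = 0.0143), from 593 FPKM at PN2 to 1106 and 1240 at PN14. Its adult level of 613 FPKM was close to the 523 and 593 of the early libraries. Cox6c and Cox7b rose by 2.01 and 1.89. Cox7b2, a relative of Cox7b, had at most 3 counts in a library and was not tested.

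Complex V held the most abundant member in every library. This member was Atp5b, the catalytic beta subunit (mm9 chr10:127520329-127527447, plus strand), at 1294 FPKM at E18.5, 1688 at PN2, 2378 and 2711 at PN14, then 1978 at PN28 and 1562 in the adult. The adult level lay below that at PN2. Its change from PN2 to PN14 was 1.25 with the largest SE of any member, 0.683, and was not called by edgeR (adjusted p = 0.205), while DESeq2's Wald test gave 1.23 with an adjusted p of 4.07e-05. Atp5a1, the alpha subunit, was at 728, 832, 1309, 1446, 1147 and 950 FPKM. It gave 1.39 (SE 0.611, edgeR adjusted p = 0.132), and DESeq2 gave 1.37 with an adjusted p of 4.44e-06. The beta to alpha ratio stayed between 1.65 and 2.03 in the 6 libraries. The rest of the catalytic head and its stalks, Atp5c1, Atp5d, Atp5e, Atp5f1, Atp5h, Atp5j and Atp5o, were called higher at PN14, by 1.35 for Atp5o to 1.98 for Atp5h. So were Atp5j2, Atp5k and Atp5l of the membrane part, by 1.87, 1.92 and 1.52. Over the 15 subunits, 12 were called from PN2 to PN14, 11 from PN2 to PN28 and 12 from E18.5 to adult, with medians of 1.48, 1.38 and 1.48. Exons of Atp5j overlap those of Gabpa on the other strand, and exons of Atp5o those of Donson on the same strand.

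The 3 genes of subunit c, whose proteins are cut to 1 identical ring subunit, followed different courses in FPKM. Atp5g1 (mm9 chr11:95930166-95936984) was at 362 FPKM at E18.5, 356 at PN2, 794 and 958 at PN14, then 692 at PN28 and 559 in the adult. All later libraries exceeded the early ones, and the change to PN14 was 1.95 (SE 0.350, edgeR adjusted p = 0.0132). Atp5g2 (mm9 chr15:102493299-102501478) was at 451, 520, 473, 611, 417 and 453 FPKM. Its PN14 libraries lay on either side of the PN2 library, and its change of 0.71 (SE 0.276, edgeR adjusted p = 0.0992) was the smallest of any subunit and 0.06 under library size alone. Atp5g3 (mm9 chr2:73746504-73749383) was at 923, 1078, 1641, 2082, 1246 and 739 FPKM. It was the highest of the 3 in every library, with its lowest level in the adult. It rose by 1.44 from PN2 to PN14 (SE 0.402, edgeR adjusted p = 0.0424), and from PN28 to adult the change was -0.62 (SE 0.435, edgeR adjusted p = 0.509), which was not called. Of the summed subunit c FPKM, Atp5g1 made up 20.9% at E18.5 and 18.2% at PN2, 27.3% and 26.2% at PN14, then 29.4% at PN28 and 31.9% in the adult. The share of Atp5g2 was 26.0% and 26.6% in the early libraries, 16.3% to 17.7% at PN14 and PN28 and 25.9% in the adult. Atp5g3 held 52.9% to 57.0% up to PN28 and 42.2% in the adult. The difference between the 3 genes was not tested.

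**Figure D2:**
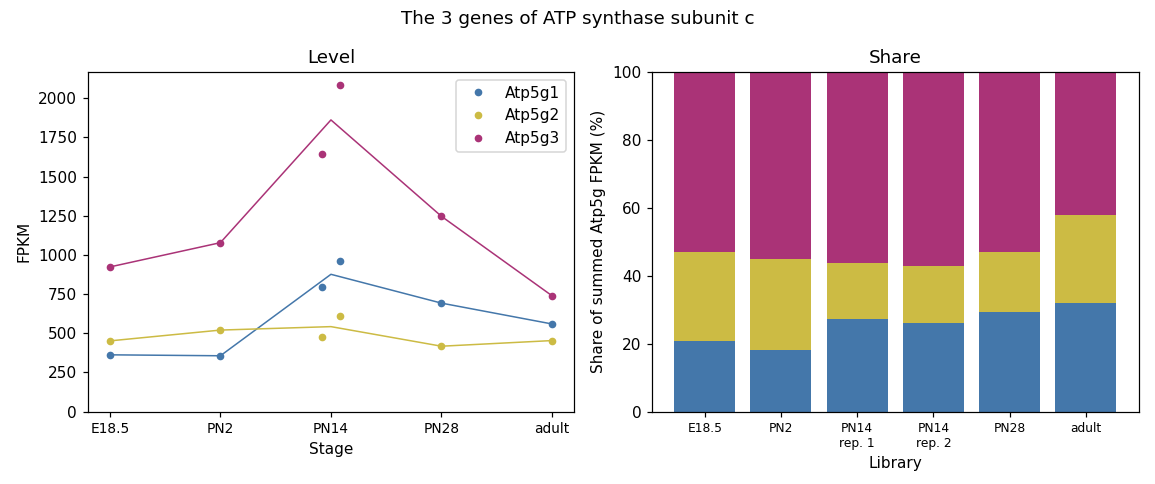
Left, FPKM of Atp5g1, Atp5g2 and Atp5g3 by stage, with 1 point per library and the line through the PN14 mean; right, the share of each gene in their summed FPKM (percent) in each of the 6 libraries. The share of Atp5g1 goes from 18.2% at PN2 to 31.9% in the adult, and that of Atp5g2 is lowest at PN14.

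The role groups could be set side by side in levels and in changes, although genes of a complex are not replicates and the differences between roles were not tested. In median FPKM, complex V stood at 2.35 to 2.69 times complex II in the 6 libraries. Complex III stood at 1.49 and 1.64 times complex II at E18.5 and PN2 and at 1.79 to 2.07 times from PN14 on. Complex IV went from 1.84 and 1.99 to between 2.28 and 2.96. In median change from PN2 to PN14 the order was complex IV at 1.89, III at 1.82, II at 1.58 and V at 1.48. Their ranges overlapped: 1.64 to 2.13 for complex IV, 1.26 to 2.16 for III, 1.26 to 2.30 for II and 0.71 to 1.98 for V.

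**Figure D3:**
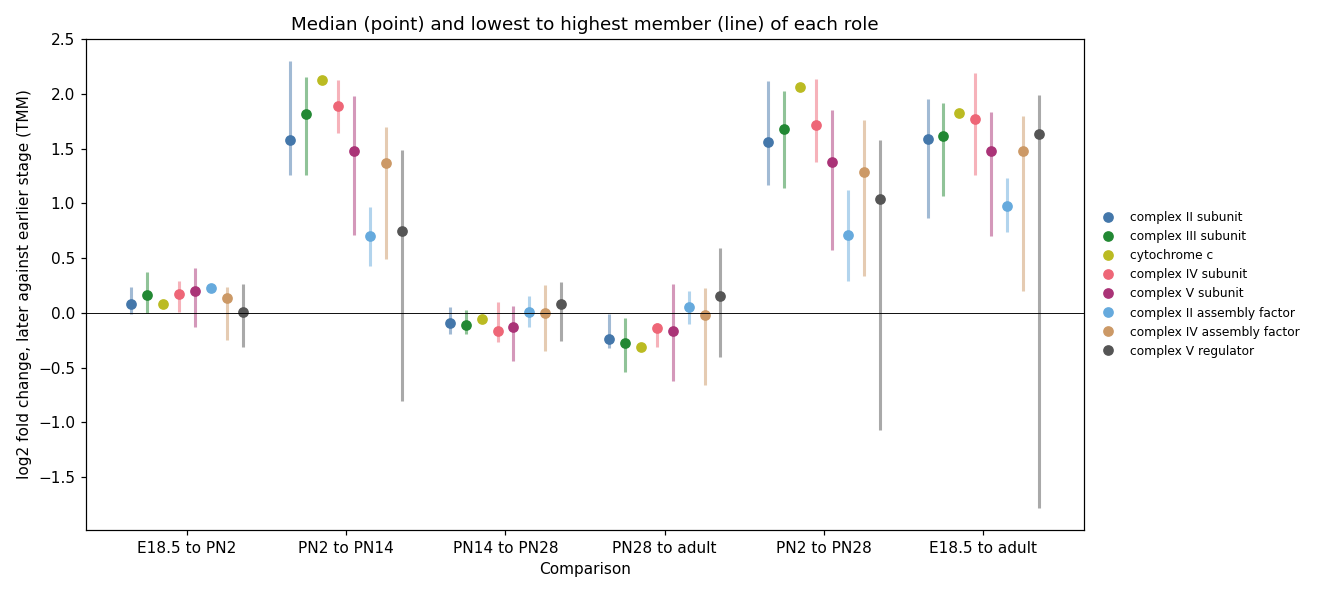
Log2 fold change under TMM, later against earlier stage, for each role in the 6 comparisons. Points are medians over the genes of a role and lines run from its lowest to its highest member; the medians from PN2 to PN14 are 1.89 for complex IV and 0.70 for complex II assembly factors, and all medians lie between -0.31 and 0.23 in the 3 comparisons with no member called.

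Assembly factors were less abundant than subunits in every library and had a smaller median change. Their median level was 12.5 FPKM at E18.5, 14.6 at PN2, 16.0 in PN14 replicate 1, 15.9 at PN28 and 14.6 in the adult, against 318, 356, 704, 577 and 486 FPKM for the subunits. The ratio of these medians was 0.0394 and 0.0410 at E18.5 and PN2, 0.0227 and 0.0231 at PN14, then 0.0275 at PN28 and 0.0301 in the adult, lowest when the subunits were highest. From PN2 to PN14, 6 of the 10 factors were called higher, with a median of 1.20 against 1.71 for the subunits, of which 29 of 33 were called. Over all genes tested the share called higher was 11.8%. Complexes III and V have subunits but no factor under the rule, so role and complex are mixed here. Within complex IV the median was 1.37 for the 8 factors and 1.89 for the 5 tested subunits. By library size alone, 1 of the 10 assembly factors and 17 of the 33 subunits were called higher, against 5.06% of all genes. The 1 call among 10 factors lies near that share. The 6 called under TMM were all complex IV factors. Cox17, a copper chaperone, gave 1.70 (SE 0.185, edgeR adjusted p = 0.00521), with exons that overlap those of Popdc2 on the same strand, and Cox14 and Cox19 gave 1.61 and 1.58. Cox11, which delivers copper, went from 8.01 FPKM at PN2 to 13.8 and 15.1 at PN14 and had the largest rise of the complex IV factors to PN28, 1.76 (SE 0.204, edgeR adjusted p = 0.00703), with exons that overlap Tom1l1 on the other strand. Cox10 and Cox15 act one after the other to make heme A, and the difference between them was not tested. Cox10 was at 10.2 and 11.2 FPKM early and 15.4 to 17.5 FPKM later and rose by 1.23 to PN14 (SE 0.183, edgeR adjusted p = 0.00878), with exons that overlap 9630013K17Rik on the other strand. Exons of Cox16, called higher at 1.18, overlap those of Synj2bp on the same strand. Cox15 was at 12.9, 15.2, 12.1, 15.1, 10.4 and 7.30 FPKM, so that no later library exceeded PN2. Its change to PN14 was 0.49 (SE 0.178, edgeR adjusted p = 0.0823), not called and of the other sign, -0.16, under library size alone. The exons of Cox15 overlap those of Cutc and Entpd7 on the other strand.

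The 2 complex II factors had the smallest median change of any role from PN2 to PN14, 0.70. Sdhaf1, needed for the iron-sulfur clusters of Sdhb, was at 20.8, 24.6, 18.3, 24.1, 16.3 and 17.1 FPKM. All libraries after PN2 lay below it. Its change to PN14 was 0.43 (SE 0.180, edgeR adjusted p = 0.118) and -0.22 under library size alone, and its single exon overlaps E130208F15Rik on the other strand. Sdhaf2, which helps attach flavin to Sdha, was lowest at E18.5 with 12.1 FPKM, stood at 16.3 and 18.5 at PN14 and 16.4 at PN28, and returned to 13.9 in the adult, with PN2 close to that adult level. It gave 0.97 (SE 0.180, edgeR adjusted p = 0.0145) from PN2 to PN14, just under the fold limit, and was called from PN2 to PN28 at 1.12 (SE 0.201, edgeR adjusted p = 0.0137). Cox18, an insertase, gave 0.75 at 9.28 and 10.8 FPKM and was not called until the comparison of E18.5 with adult, at 1.24.

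Atpif1 alone of the tested members was lower in each of the 3 comparisons that run from E18.5 or PN2 to PN14 or later. It encodes the small inhibitor that blocks ATP hydrolysis by complex V when the proton gradient fails (mm9 chr4:132086470-132089574, minus strand, with exons that overlap a transcript, Gm12999, on the other strand). Its level was 178 FPKM at E18.5, 144 at PN2, 42.2 and 63.4 at PN14, then 37.1 at PN28 and 25.5 in the adult. Both early libraries lay above all later ones, and the spread between the PN14 mice was wide (52.8 ± 15.0 FPKM, SD, n = 2). From PN2 to PN14 the change was -0.81 (SE 0.197, edgeR adjusted p = 0.0297), short of the fold limit, and -1.44 with library size alone, which was called (edgeR adjusted p = 8.20e-05). From PN2 to PN28 it fell by 1.07 (SE 0.237, edgeR adjusted p = 0.0224). From E18.5 to adult it fell by 1.78 (SE 0.241, edgeR adjusted p = 0.00267) relative to the middle of all genes, and by 2.80 with library size alone. Set against the subunit on which it acts, Atpif1 was at 13.8% of the FPKM of Atp5b at E18.5 and 8.52% at PN2, 1.77% and 2.34% at PN14, then 1.88% at PN28 and 1.63% in the adult. The other 2 genes of the group were low. Atp5sl went from 6.44 and 7.72 FPKM to 12.4 to 15.1 FPKM and rose by 1.49 to PN14 (SE 0.177, edgeR adjusted p = 0.00577). Atp5s was at 4.57 to 5.12 FPKM until PN28 and 6.95 in the adult. It was called higher from PN2 to PN28 at 1.04 and from E18.5 to adult at 1.63. Under library size alone these changes were 0.15 and 0.61 and were not called.

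**Figure D4:**
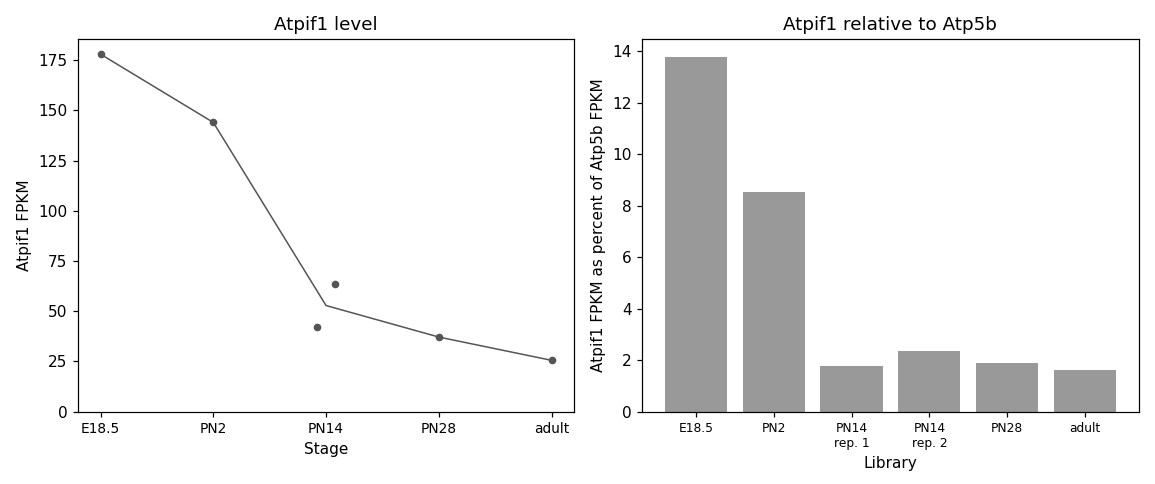
Left, Atpif1 in FPKM by stage, with 1 point per library and the line through the PN14 mean; right, Atpif1 FPKM as a percent of Atp5b FPKM in each of the 6 libraries. Atpif1 is at 178 and 144 FPKM in the early libraries and at most 63.4 later, and its ratio to Atp5b goes from 13.8% to 1.63%.

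The plot of changes under both scalings shows how far the sizes rest on the middle of all genes. From PN2 to PN14, 46 of the 47 members were above 0 under TMM and 44 by library size alone, and from PN2 to PN28 the numbers were 46 and 42. Cycs, Cox5a, Sdhb and Uqcrq were among those called higher at PN14 under both.

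**Figure D5:**
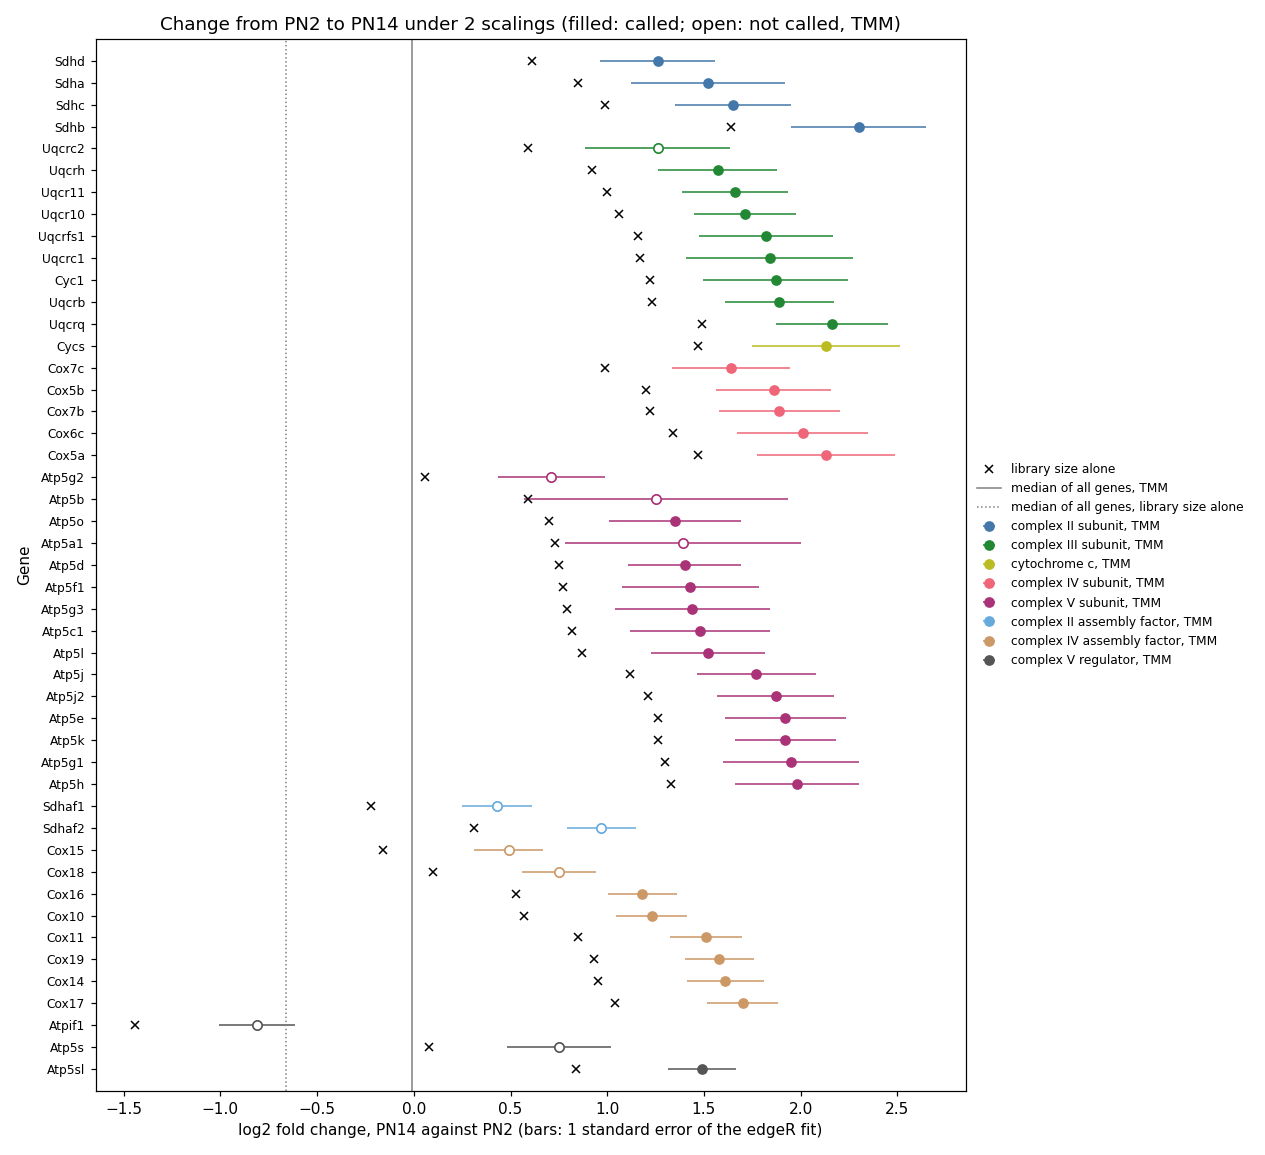
Log2 fold change from PN2 to PN14 for the 47 tested members, ordered by role. Circles with bars are TMM values ± 1 SE (filled where called, open where not), crosses are the values by library size alone, and vertical lines mark the median of all genes at -0.01 (TMM) and -0.66 (library size); Sdhb is highest at 2.30 and Atpif1 lowest at -0.81.

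No member was called in the 3 other comparisons of neighbouring stages. From PN14 to PN28 edgeR called 0 members, with 0 at an unadjusted p under 0.05 and 0 by DESeq2, against 0.0178% of all genes called higher and 0% lower. The median change was -0.10, from -0.44 for Atp5h to 0.28 for Atp5s. From PN28 to adult edgeR again called 0, with 1 at an unadjusted p under 0.05 and 0 by DESeq2, against 0.160% and 0.361% of all genes. The 1 was Cox19, another copper-related factor, singled out after its values were seen. It was at 31.9, 26.9, 47.7, 54.5, 34.2 and 19.7 FPKM, so that the adult level lay below the early ones, and its change was -0.66 (SE 0.194, edgeR adjusted p = 0.175). Of the 33 subunits, 3 were above 0 in this interval, with a median of -0.18, and 0 were called. From E18.5 to PN2 edgeR called 0 members, with 0 at an unadjusted p under 0.05 and 0 by DESeq2, against 0.0178% higher and 0.0118% lower of all genes. The median was 0.17, with 39 of 47 above 0. With SEs of 0.165 to 0.745 in these 3 comparisons, changes of the size seen there were not detectable.

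Other genes of the same machinery, listed by name, were read in the same fit. Over all genes tested, 11.8% were called higher and 11.2% lower from PN2 to PN14, and 14.3% and 12.7% from PN2 to PN28. Of 11 tested complex IV subunits outside the rule, 7 were called higher and 0 lower from PN2 to PN14, with a median of 1.57. By PN28, 6 were called higher than at PN2 and 1 lower. The muscle forms Cox7a1, Cox6a2 and Cox8b changed by 3.88 (SE 0.335, edgeR adjusted p = 0.00551), 2.79 and 2.70. Cox8a, the form of most tissues, fell by 1.28 (SE 0.365, edgeR adjusted p = 0.0426). Cox6a1 changed by -0.76 and Cox7a2 by 0.73, and neither was called (edgeR adjusted p = 0.115 and 0.0962). Against these, the 5 tested complex IV subunits of the rule, which have no muscle form among them, kept within 1.38 to 2.14. Of 21 other assembly factors, 12 were called higher at PN14 and 0 lower, with a median of 1.01. Taco1, needed to translate the largest complex IV subunit, was the highest at PN28 with 2.33 (SE 0.252, edgeR adjusted p = 0.00660), and Sco1, a copper carrier, the lowest with -0.28 (SE 0.221, edgeR adjusted p = 0.350). The ATP synthase factors Atpaf1 and Tmem70 were called higher at PN28, by 1.29 and 1.37. The small ATP synthase subunits Usmg5 and 2010107E04Rik rose by 1.76 and 1.38 to PN14. Of 22 import, chaperone and dynamics genes, 7 were called higher at PN14 and 0 lower, with a median of 0.84. By library size alone the median of the 22 was 0.18, with 13 above 0, against -0.66 for all genes. On that scale the other complex IV subunits had a median of 0.91 and the other assembly factors 0.36. The phosphate carrier Slc25a3 and the muscle adenine nucleotide carrier Slc25a4, which serve complex V, gave 1.17 and 1.76 at PN14 and were not called (edgeR adjusted p = 0.0572 and 0.0966). Slc25a5, the adenine nucleotide carrier of many other tissues, was called lower from PN2 to PN28 at -1.32 (SE 0.364, edgeR adjusted p = 0.0391).

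Markers of other cells moved over the same interval. The summed FPKM of 5 fibroblast markers was 5977 at E18.5 and 4897 at PN2, against 499 to 1998 later, and all 5 were higher at PN2 than in both PN14 libraries. The 4 proliferation markers summed to 111 and 72.9 FPKM early and 0.310 to 22.5 later, and the 3 satellite cell markers to 59.6 and 53.0 against 6.82 to 17.6. The 4 bone and tendon markers summed to 168 and 210 against 12.2 to 47.4, with Ibsp and Bglap listed at 0 in at least 1 later library. Fast fibre markers, 5 in number, went from 4310 and 4972 to between 37258 and 54123 FPKM, while the 4 slow fibre markers summed to 1948 and 1586 early, to 2371 and 1882 in the PN14 mice, and later to 870 (PN28) and 671 (adult). The 5 erythroid markers summed to 8936 FPKM at E18.5, against 1566 at PN2 and at least 393 in each later library. The 5 adipocyte markers ranged from 363 to 638, with Ucp1 at most 0.420 FPKM and listed at 0 in the adult. The 4 endothelial markers ran from 53.3 to 207, the 4 macrophage markers from 32.7 to 56.6 and the 3 Schwann cell markers from 39.6 to 847. The part of these shifts in the changes of the members was not tested.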

How the data were processed

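Poly(A) RNA-seq of gastrocnemius muscle gave 1 table of genes by 6 libraries. The deposited values are expected counts per gene that the authors obtained with RSEM on RefSeq gene models (mm9, TopHat2 2.0.5 per the labels), given as whole numbers. The deposited FPKM, made by the authors from the same counts, are scaled to each library's size, with no further normalisation between libraries. Whether counting used strand is not given in the sources used here. Only PN14 had replicate libraries, so p-values rest on the spread between those 2 mice. That spread was shared between genes by the fit, so a large SE need not mean that the 2 mice differed in that gene.

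Counts were rounded, filtered with edgeR's filterByExpr by stage (16882 genes kept), normalised by TMM and fitted over all 6 libraries with 5 stages in edgeR 4.0.16 (R 4.3.3). SE is the size of the log2 fold change divided by the square root of F. The common biological coefficient of variation was 0.188 and the prior degrees of freedom 4.86. Counts were also simulated from each gene's mean over all 6 libraries, with the same dispersion for every gene and 200 genes changed 4-fold at PN14. From PN2 to PN14, 197 of the 200 were recovered, with 9 false calls over 16347 genes. The simulation held no other change between stages and no shift in scaling, unlike these data, so it checks the code and not the error rate here. DESeq2 1.42.0, library size, other filters, FPKM ratios (pseudocounts 0.1 and 1) and leaving out either PN14 mouse were alternatives.

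Members and lists were chosen with earlier results of these data known. Values are given in full for the genes with the largest and the smallest change from PN2 to PN28 in each role, for those called lower or called in a later comparison, and for fixed genes (Sdha, Sdhb, Cyc1, Cycs, Atpif1, Atp5a1, Atp5b, the Atp5g genes, Cox5a and Cox5b). Gene positions are from GENCODE M1 (mm9), promoters from RefSeq (GRCm38.p6). Depth was 125402932 to 157868359 counts per library, but the SEs rest on the PN14 spread shared between genes.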

Additional observations from a re-analysis of the deposited data

How the results depend on the processing

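The scaling moved these results most. By library size alone the members called, in either direction, were 20 from PN2 to PN14, 6 from PN2 to PN28 and 2 from E18.5 to adult, against 37, 39 and 40 under TMM. Of all genes, 34.5%, 42.4% and 53.6% were called by library size alone in these comparisons. The median change of the members by library size alone, by the log2 ratio of FPKM plus 0.1 and by that of FPKM plus 1 was 0.93, 0.92 and 0.91 from PN2 to PN14, and 0.66, 0.66 and 0.64 from PN2 to PN28. It was 0.58, 0.58 and 0.51 from E18.5 to adult, -0.33 in all 3 from PN14 to PN28, and -0.31 in all 3 from PN28 to adult. The median of all genes was not computed for the FPKM ratios. The median for the subunits minus that for the assembly factors from PN2 to PN14 was 0.55 by FPKM plus 1. Without PN14 replicate 1 or 2, the members' median ran from 1.55 to 1.61 from PN2 to PN14 and from -0.14 to -0.04 from PN14 to PN28, and the subunit minus assembly factor difference from 0.49 to 0.54 and from -0.12 to -0.09. No count of called genes could be had without a PN14 replicate, since no residual degree of freedom is left. DESeq2's size factors, DESeq2's Wald test, no filter, a mean of at least 1 CPM and no fold limit kept each count of called members within 1.5 times. No paired analysis was possible because 4 of the 5 stages had a single library.

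With 1 library for 4 of the 5 stages, a difference between single mice or pools cannot be told apart from one between stages there. Atp5b and Atp5a1 had the largest SEs of the members from PN2 to PN14, and DESeq2 called both there while edgeR called neither.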

Other observations

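From E18.5 to adult, genes of the wider machinery were called in both directions. Cox7a1, the heart and muscle form of a small complex IV subunit, was called higher at 4.31, and the fusion gene Mfn2, which joins mitochondrial outer membranes, at 2.86 among the 22 import, chaperone and dynamics genes. Cox6b2, a form best known from testis, was called lower at -3.30, and the adenine nucleotide carrier Slc25a5 at -2.15, while its muscle counterpart Slc25a4 was called higher at 2.31. Of the members, only Atpif1 was called lower over that span. The interval from PN14 to adult was not compared as such.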
